A study of Mus musculus with 8 samples.

Results

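The cytosolic ribosome is built from ribosomal RNA and a set of ribosomal proteins, and this is an account of the mRNAs of those proteins in the mouse ileum. The genes were taken by name: every array gene whose name starts with Rpl or Rps and a number, together with Rplp0, Rplp1, Rplp2 and Rpsa, leaving out the S6 kinases and names marked as pseudogenes. The rule used no measured difference between groups. It found 86 of the 35715 gene names on the array. Of these, 76 are canonical ribosomal proteins (31 of the small 40S subunit and 45 of the large 60S subunit). A further 9 are paralogs of ribosomal proteins, and 1, Rps19bp1, encodes a protein that binds RPS19 and is not itself part of the ribosome. Rpl37 was not found by that name (the array carries Rpl37rt, counted with the paralogs), and Fau and Rack1, whose names do not follow the pattern, are given with the related genes further on. Each gene was represented by the probe with the highest mean signal, and 83 of the 86 were bright enough to be tested. The other 3, Rpl10l, Rpl39l and Rpl3l, are paralogs whose probes were well above background on 1, 1 and 0 of the doxycycline arrays and on 0 saline arrays each.

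RNA came from the ileum of female mice of the strain Rosa26rtTA/+, Hprt Myc-Tnk1tg, in which doxycycline turns on a Tnk1 transgene placed at Hprt through an activator expressed from Rosa26. Of the 8 arrays, 4 hold RNA from mice injected with doxycycline (50 µg per g of body weight in 100 µl) and 4 hold RNA from mice injected with 100 µl of 0.9% NaCl, all taken 24 h later. The titles and source name of the saline samples say wild type, while their strain label and the protocol give the transgenic strain. If the saline mice were wild type, genotype could not be told apart from the treatment either. No group received doxycycline without the transgene, so the drug and the transgene cannot be told apart.

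The 8 arrays share 1 slide, with the doxycycline arrays in row 1 and the saline arrays in row 2, and the position on the slide cannot be told apart from the treatment. Fewer probes were well above background on the saline arrays (22069 to 23994) than on the doxycycline arrays (30485 to 31713), and 0 spots were saturated. The labels do not state that each array is a separate animal, and p-values then cover only the spread among these 8 samples. As a check of the labels, the Tnk1 probe on the 5′ side read 0.13, 0.57, 0.60 and 0.35 on the doxycycline arrays and -2.14, -2.24, -2.12 and -2.99 on the saline arrays (log2 difference 2.78, SE 0.23, limma adjusted p = 0.000476). The brightest Tnk1 probe, toward the 3′ end, did not pass the test (-0.46, SE 0.19, adjusted p = 0.147). Hprt was higher by 6.01 (SE 0.27, adjusted p = 4.5e-05). Signals are log2 intensities relative to the 75th percentile of the array, and the levels of different probes are not compared with each other. In a bulk tissue, fewer cells of a type and less RNA per cell cannot be told apart.

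Ribosomal proteins are made in equal amounts for each subunit, and their mRNAs are among the most abundant of a dividing epithelium. Most of these mRNAs start with a C followed by a run of pyrimidines, the 5′ terminal oligopyrimidine (TOP) motif, through which mTORC1 and the binding protein LARP1 control how strongly they are translated. Control at that step can alter ribosomal protein synthesis with little difference in the mRNA level, which is what an array measures. Some members also act outside the ribosome: RPL5 and RPL11 with 5S rRNA restrain MDM2, and RPSA is known as a laminin receptor.

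Start site windows are shown because the TOP motif is the sequence that members of the family share and that the naming rule did not use. They come from the RefSeq promoter table (GRCm38.p6), which matched 56 of the 76 canonical genes. Each window runs from 40 bases before to 20 bases after the annotated start, 5′ to 3′ on the gene's strand. Capitals mark the longest uninterrupted run of C or T that reaches within 5 bases of the start.
Rpl15 (chr14:18270967-18271026, minus strand): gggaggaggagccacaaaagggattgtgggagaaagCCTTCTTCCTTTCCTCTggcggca
Rpl28 (chr7:4792925-4792984, plus strand): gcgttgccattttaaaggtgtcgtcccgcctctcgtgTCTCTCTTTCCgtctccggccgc
Rpl35 (chr2:39005112-39005171, minus strand): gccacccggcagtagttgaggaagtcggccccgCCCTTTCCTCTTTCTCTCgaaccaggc
Rplp2 (chr7:141447611-141447670, plus strand): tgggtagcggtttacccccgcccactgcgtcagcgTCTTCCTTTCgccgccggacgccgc
Rps6 (chr4:86857348-86857407, minus strand): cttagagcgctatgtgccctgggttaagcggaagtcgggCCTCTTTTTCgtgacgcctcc
Rps10 (chr17:27635225-27635284, minus strand): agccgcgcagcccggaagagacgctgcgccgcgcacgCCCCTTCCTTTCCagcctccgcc
Rps18 (chr17:33955646-33955705, minus strand): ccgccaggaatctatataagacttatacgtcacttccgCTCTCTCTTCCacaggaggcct
Rps27 (chr3:90213629-90213688, minus strand): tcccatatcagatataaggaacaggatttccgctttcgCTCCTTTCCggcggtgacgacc
Rpsa (chr9:120127726-120127785, plus strand): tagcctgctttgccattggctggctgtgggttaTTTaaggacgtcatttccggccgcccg
Rpl5 (chr5:107900488-107900547, plus strand): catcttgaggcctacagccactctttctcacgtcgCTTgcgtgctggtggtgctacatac
Rpl36al (chr12:69184048-69184107, minus strand): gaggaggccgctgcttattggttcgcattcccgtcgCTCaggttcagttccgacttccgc
Rps19bp1 (chr15:80264287-80264346, minus strand): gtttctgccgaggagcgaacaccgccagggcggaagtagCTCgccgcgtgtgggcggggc

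The marked run is at least 8 pyrimidines long in the first 8 windows and shorter in the last 4. The Rpl5 window also holds a longer run, not marked because it ends more than 5 bases before the annotated start. A start at C followed by C or T, with a run of at least 5, was found in 13 of the 66 windows of the 56 matched canonical genes (19.7%), since a gene can have several annotated starts, against 2.51% of all 32851 windows of the table. A run of at least 8 pyrimidines within 5 bases of the start was found in 22 of the 66 (33.3%), against 9.38% of all windows. Annotated starts can miss the true start by several bases, so these shares count letters at annotated positions. Over the whole table window of 250 bases before to 50 after the start, and on both strands, the GABP core CCGGAAG was present in 24 of the 66 (36.4%, against 8.86% of all windows). The SP1 box GGGCGG was present in 40 (60.6%, against 35.7%), the YY1 core AAGATGG in 11 (16.7%, against 6.34%) and TATAAA in 6 (9.09%, against 13.6%). The median log2 difference between doxycycline and saline was 0.03 for the 22 genes with the long pyrimidine run and 0.02 for the 34 without it.

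None of the ribosomal protein mRNAs passed the test between doxycycline and saline. With limma and a threshold of adjusted p 0.05, 0 of the 83 tested genes were higher and 0 were lower, where 5.95% of all 21362 genes tested were higher and 8.14% lower. At an unadjusted p under 0.05 the count was also 0 of 83, beside 31.5% of all genes. In 11 of the 23 refits under other settings, 1 to 4 members had an unadjusted p under 0.05. All but 2 of these 23 refits also gave 0 in both directions at adjusted p 0.05. The lowest p among the 83 was 0.0815 (adjusted p = 0.214), that of Rps19. The 8 arrays were separated by group without overlap for 1 of the 83, Rpsa, where 8.82% of all genes tested were separated with the doxycycline arrays higher and 13.1% with them lower.

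The differences of the 83 lay close together. Their median log2 difference was 0.02, with 46 above and 37 below 0, and the middle 50% of the genes spanned 0.15. Over all genes tested the median was 0.01 and that span was 0.69. A difference under 0.2 in size was found for 76 of the 83 (91.6%) and for 31.7% of all genes. Among the 2887 genes tested whose mean level was above 4, as that of every canonical member was, 3.43% were higher and 8.56% lower, and the middle 50% spanned 0.50.

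A p that misses the threshold does not show that levels were equal, so the intervals matter here. The 95% interval of the difference lay within a 2-fold change in either direction for 81 of the 83 genes and within a 1.5-fold change for 69. The 2 genes with wider intervals, Rpl28 and Rpl5, also had the extreme differences, -1.07 and 0.65, and each turns on low readings on single arrays given below. The median SE was 0.16 among the 83 and 0.22 over all genes.

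**Figure D1:**
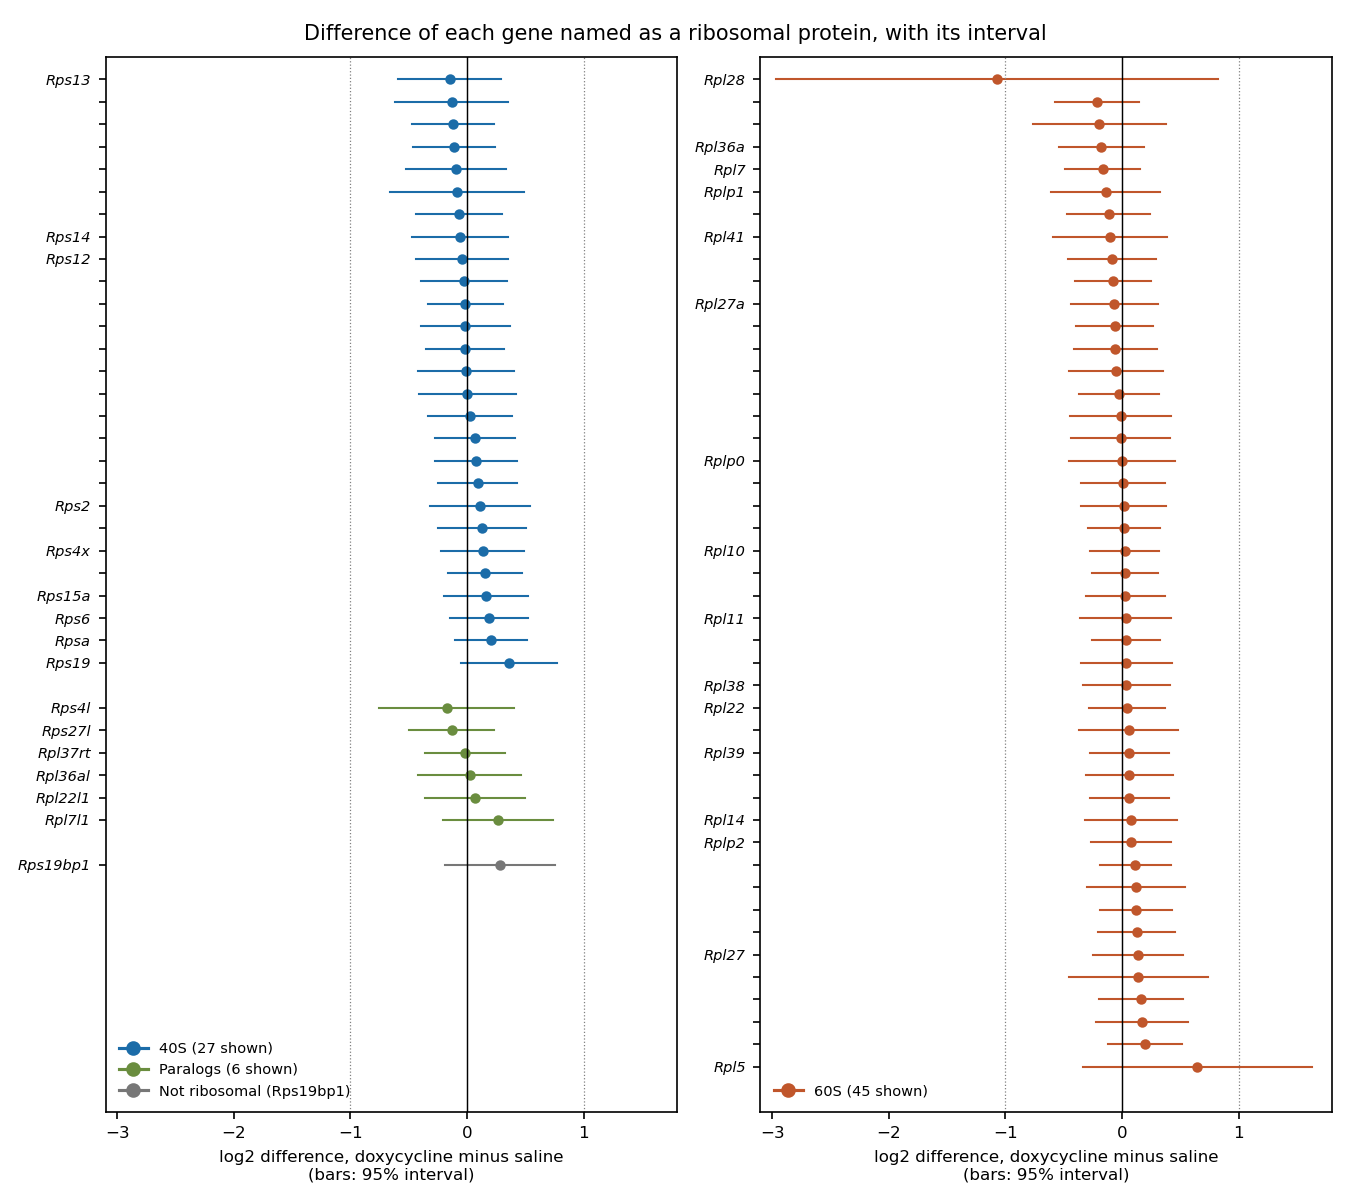
Log2 difference (doxycycline minus saline, horizontal axis) of 79 of the 83 tested genes, 1 row per gene and some of them labelled, with 95% intervals as bars and dotted lines at a 2-fold change. All intervals shown cross 0, and only those of Rpl28 and Rpl5 pass the dotted lines.

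**Figure D2:**
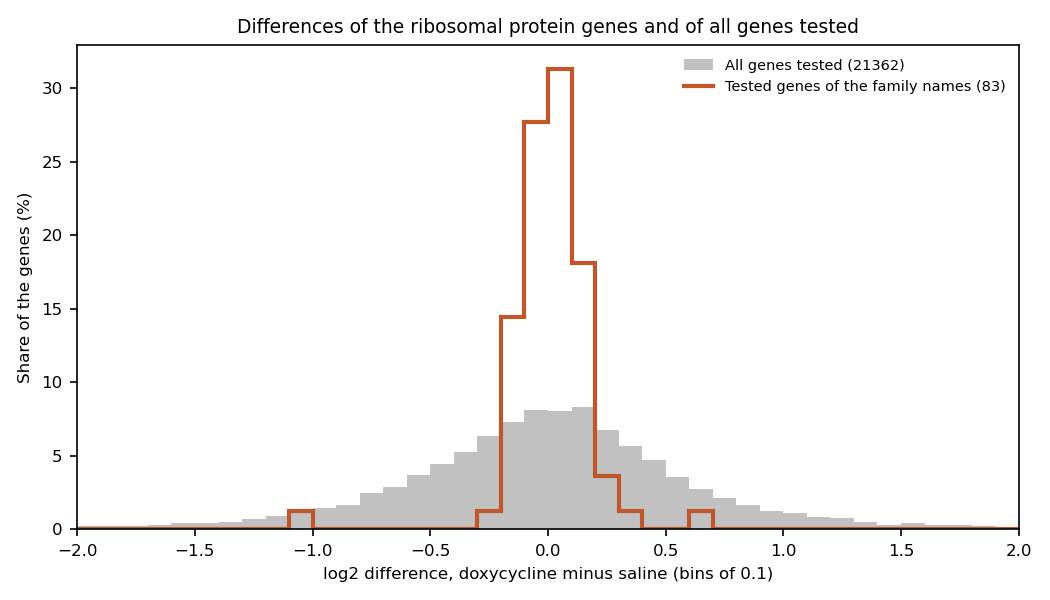
Share of genes (vertical axis, %) by log2 difference (horizontal axis, bins of 0.1) for the 83 tested ribosomal protein names (line) and for all 21362 genes tested (grey). Genes beyond 2 in either direction are outside the axis; 91.6% of the named genes lie within 0.2 of 0, against 31.7% of all genes.

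Among the 31 proteins of the 40S subunit, the median difference was -0.01, with 14 above and 17 below 0 and a range of -0.15 (Rps13) to 0.36 (Rps19). Rpsa, the laminin receptor protein of the small subunit, read 7.73, 7.51, 7.49 and 7.55 on doxycycline arrays 1 to 4 and 7.23, 7.35, 7.42 and 7.46 on the saline arrays. Every doxycycline array was above every saline array, by as little as 0.03 for the closest pair. Its difference was 0.21 (SE 0.13, 95% interval -0.10 to 0.51, limma adjusted p = 0.335). The second brightest of its 4 measured probes went the other way, with 7.55, 7.20 and 7.19 on doxycycline arrays 1 to 3 and its lowest value on array 4, against 7.34, 7.33, 7.26 and 7.58 with saline (difference -0.14, overlapping). The remaining pair of probes differed by 0.28 and -0.21, and none of the 4 passed the test.

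Rps6, the substrate of the S6 kinases downstream of mTORC1, read 7.15, 7.11, 6.91 and 7.17 with doxycycline and 6.85, 6.88, 6.73 and 7.15 with saline. The groups overlapped because saline array 4 was as high as the doxycycline arrays, and the difference was 0.18 (95% interval -0.15 to 0.52). Rps19, which is needed for maturation of the 18S rRNA and is mutated in Diamond-Blackfan anaemia, read 6.02, 6.36, 6.16 and 6.57 with doxycycline and 5.96, 6.23, 5.75 and 5.73 with saline. It was singled out here after its values were seen, as the gene with the lowest p. Its groups overlapped through saline array 2, and its interval ran from -0.05 to 0.77.

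Rps14, the protein whose loss is linked to the 5q- syndrome, was among the 4 brightest members. It read 8.73, 8.30, 8.47 and 8.36 with doxycycline against 8.39, 8.41, 8.37 and 8.94 with saline (difference -0.06, 95% interval -0.47 to 0.35). Doxycycline array 1 and saline array 4 were the high arrays, and the other 6 lay close together.

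Among the 45 proteins of the 60S subunit, the median difference was 0.02, with 28 above and 17 below 0. Rpl28 had the largest negative difference of the 83, and was singled out after its values were seen. It read 3.44 on doxycycline array 1 and 7.56, 7.31 and 7.52 on the other doxycycline arrays, against 7.53, 7.53, 7.43 and 7.62 with saline. A single array thus carried the difference of -1.07 (SE 0.83, adjusted p = 0.419). Without that array the difference was -0.07. The second Rpl28 probe read 5.77, 6.08, 5.95 and 6.18 with doxycycline and 6.18, 6.16, 6.01 and 5.75 with saline. On doxycycline array 1 it was the lowest of the doxycycline values, by far less than the brightest probe was.

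Rpl41, which encodes a very short basic protein, was the brightest member. It read 8.96, 8.50, 8.47 and 8.60 with doxycycline and 8.56, 8.54, 8.55 and 9.30 with saline (difference -0.11, 95% interval -0.59 to 0.38). Saline array 4 stood above the other 7 arrays and the remaining saline values lay within the doxycycline range.

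RPL5 and RPL11 form the 5S particle with 5S rRNA. Rpl5 read 5.63, 5.78, 5.51 and 6.02 with doxycycline and 5.78, 5.07, 3.70 and 5.82 with saline. Saline arrays 1 and 4 were within the doxycycline range, and array 3 was far below all others. The difference of 0.65 (SE 0.43, 95% interval -0.33 to 1.63, adjusted p = 0.344) became 0.18 without saline array 3. Rpl11 read 8.05, 7.95, 7.82 and 8.21 against 7.80, 7.92, 7.85 and 8.34, with a difference of 0.03 (95% interval -0.36 to 0.42) and overlapping groups.

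The acidic stalk, through which elongation factors dock on the ribosome, is formed by Rplp0, Rplp1 and Rplp2, and their median difference was 0.00182. Rplp0 read 8.57, 8.09, 8.22 and 8.23 with doxycycline and 8.13, 8.12, 8.08 and 8.77 with saline (95% interval -0.45 to 0.46). Rplp1 read 8.18, 7.89, 7.82 and 7.37 against 7.94, 7.80, 7.78 and 8.31 (difference -0.14, 95% interval -0.61 to 0.33). Rplp2 read 8.65, 8.45, 8.49 and 8.64 against 8.37, 8.37, 8.40 and 8.78 (difference 0.08, 95% interval -0.27 to 0.42). In all 3, saline array 4 was the highest of the 8 arrays and the groups overlapped. Rplp0 has 3 measured probes. The second brightest read 7.67, 7.59, 7.59 and 7.85 with doxycycline and 7.66, 7.59, 7.44 and 7.93 with saline, a difference of 0.02. The dimmest varied more, with 7.28, 4.97, 3.11 and 5.74 on the doxycycline arrays and 6.52, 6.53, 6.34 and 5.05 on the saline arrays, and the groups overlapped on both.

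The transgene lies at Hprt on the X chromosome, and 4 canonical genes are X-linked in RefSeq: Rpl10, Rps4x, Rpl36a and Rpl39. Their differences ran from -0.18 (Rpl36a) to 0.13 (Rps4x), with a median of 0.04, while Hprt itself was higher by 6.01. Rpl10, a late-joining protein of the 60S subunit, read 8.28, 8.33, 8.25 and 8.48 with doxycycline and 8.27, 8.29, 8.29 and 8.40 with saline, so all 8 arrays overlapped within a range of 0.24. Rpl36a read 6.42, 6.25, 6.14 and 6.56 against 6.48, 6.45, 6.37 and 6.78 (95% interval -0.54 to 0.19). The brightest probes of Rpl10 and Rps4x are annotated in mm9 to chromosomes 8 and 3 rather than X, so for these 2 the reading may include transcripts of other copies.

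The 6 tested paralogs had differences of -0.18 (Rps4l) to 0.26 (Rpl7l1) and a median of 0.00188. Rpl22l1, the paralog of Rpl22 that is known to be raised where Rpl22 is lost, read 6.24, 6.23, 5.65 and 6.28 with doxycycline and 5.93, 5.98, 5.91 and 6.31 with saline. Doxycycline array 3 was the low value, and the difference was 0.07 (95% interval -0.36 to 0.50). Rps27l, a p53-responsive paralog of Rps27, read 5.90, 5.81, 5.63 and 5.73 against 5.88, 5.68, 5.81 and 6.23 (difference -0.13, 95% interval -0.50 to 0.23).

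Rps4l read 3.38, 3.62, 3.39 and 3.58 against 3.53, 3.25, 3.43 and 4.45, so saline array 4 was the high value and the other 7 overlapped. Rpl36al and Rpl37rt differed by 0.02 (95% interval -0.42 to 0.46) and -0.02 (95% interval -0.36 to 0.32). Rpl7l1, a nucleolar relative of Rpl7, was the dimmest tested gene of the family, with -0.57, -0.52, -0.64 and -0.58 on the doxycycline arrays and -0.90, -1.21, -0.99 and -0.26 on the saline arrays. Only saline array 4 exceeded the doxycycline arrays, and the difference of 0.26 (adjusted p = 0.42) became 0.46 without it (adjusted p = 0.0578). Rps19bp1, the binding protein, read 2.61, 2.68, 2.83 and 2.85 against 2.32, 2.08, 2.44 and 3.01. There too saline array 4 was the sole saline value above the doxycycline group (difference 0.28, 95% interval -0.19 to 0.75, adjusted p = 0.394), and without that array the difference was 0.47 (adjusted p = 0.0721).

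The level of the family as a whole also overlapped between the groups. Over the 75 canonical genes measured on all 8 arrays, the mean log2 level was 7.47, 7.40, 7.35 and 7.46 on the doxycycline arrays and 7.35, 7.40, 7.26 and 7.64 on the saline arrays. The group means were 7.42 ± 0.057 (SD, n = 4) and 7.41 ± 0.162 (SD, n = 4). Saline array 4 was the highest, with 64 of the 75 genes above their own mean over the 8 arrays. Saline array 3 was the lowest, with 6 of the 75 above.

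The place of saline array 4 depended on the scaling. It had the lowest 75th percentile of the 8 arrays (7.80, against 8.09 to 8.66 on the others), and without scaling its mean over the 75 genes ranked last. With median scaling and in the deposited table it ranked first, as it did here. With quantile normalization or cyclic loess it ranked 5th, and its excess over the mean of the other 7 arrays fell from 0.25 to 0.02 under either. Without saline array 4, 0 of the 83 genes were higher and 0 were lower, and the median difference was 0.09. Without that array, differences that moved from below to above 0 included those of Rps14, Rpl41 and Rps4l (0.07, 0.08 and 0.08). Rpl37rt, Rps12 and Rpl27a also moved from below to above 0.

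**Figure D3:**
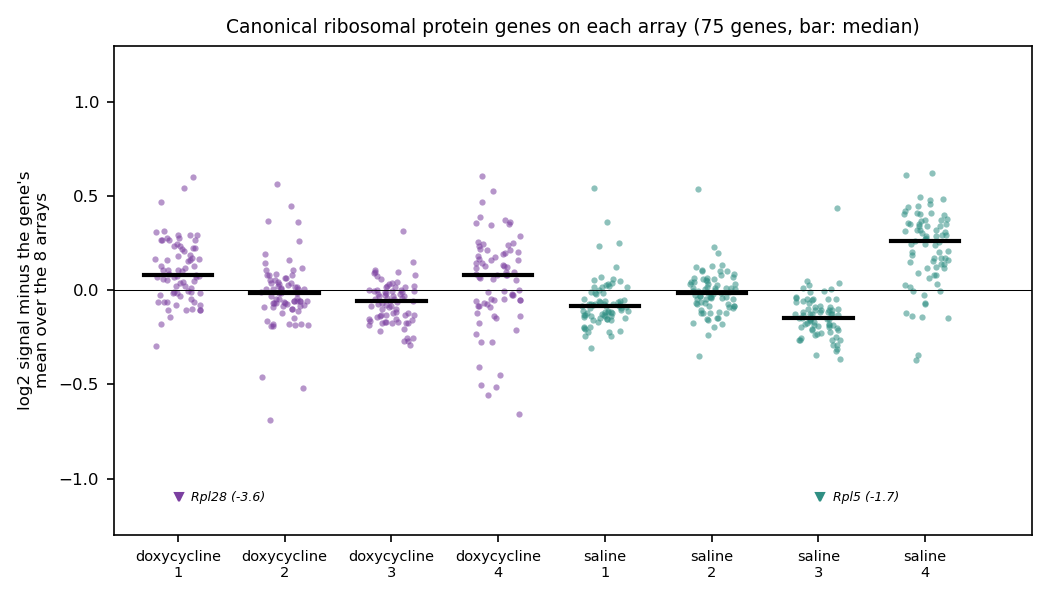
Log2 signal of each of the 75 canonical genes minus its own mean over the 8 arrays (vertical axis), by array (horizontal axis), with the median as a bar. Points on saline array 4 lie mostly above 0 (64 of 75) and those on saline array 3 mostly below (6 of 75 above), and triangles at the lower edge mark Rpl28 and Rpl5 beyond the axis.

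Most members have more than 1 probe. The family had 184 probes bright enough to be measured, and 58 genes had more than 1 of them. Within these genes the probes differed in their log2 difference by a median of 0.20, under 0.5 in 48 genes and over 1 in 3, and in 28 genes the signs were opposite. Over all 28626 probes tested, 6.09% were higher and 6.91% lower, and among the 184 probes 1 was higher and 2 were lower. These 3 were not the brightest probe of their gene and all had a mean level under 4.

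A probe 2023 bases into the Rpl22 transcript on the array read 1.32, 1.27, 0.94 and 1.14 with doxycycline and 2.43, 2.49, 2.20 and 2.10 with saline. All saline values lay above all doxycycline values, and the probe fell by 1.14 (adjusted p = 0.00358). The brightest Rpl22 probe read 7.28, 7.20, 7.07 and 7.33 against 7.14, 7.21, 6.98 and 7.37, a difference of 0.04. With the mean of its measured probes as the value of the gene, Rpl22 was called lower (-0.55, adjusted p = 0.0324). RPL22 is an RNA-binding protein of the 60S subunit that is dispensable for general translation.

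A probe 984 bases into the Rpl27a transcript read 3.49, 3.58, 3.07 and 3.35 against 4.06, 3.75, 4.08 and 4.48, and fell by 0.72 without overlap (adjusted p = 0.0438). The brightest Rpl27a probe differed by -0.06. Of the 20 dimmer probes of the family with a mean level under 4 that were not the brightest of their gene, 15 lay below 0 (median -0.18). Of the 81 other probes at 4 or more, 0 passed the test at adjusted p 0.05 and the median was 0.03.

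**Figure D4:**
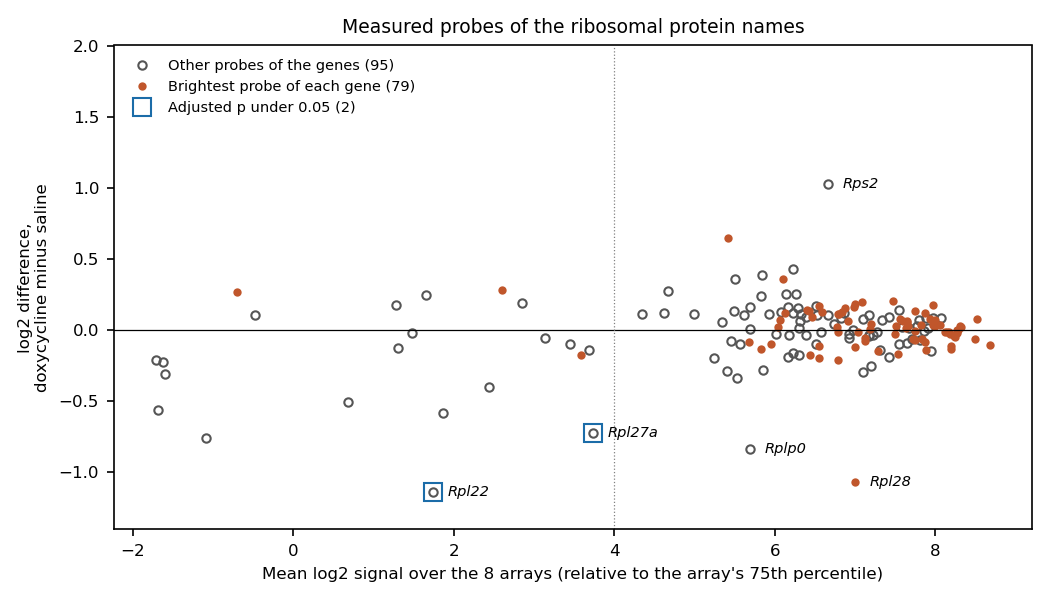
Log2 difference (vertical axis) against mean log2 signal over the 8 arrays (horizontal axis) for the measured probes of 79 of the 83 genes, filled for the brightest probe of each gene. Squares mark the 2 probes shown that passed adjusted p 0.05, in Rpl22 and Rpl27a, which lie left of the dotted line at a level of 4.

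Ribosomal protein mRNAs have left many processed copies in the mouse genome, and the array's annotation reflects this. Of the 76 brightest probes of the canonical genes, 54 are placed by the array's mm9 annotation on a chromosome other than that of their gene in RefSeq, and 22 on the same one. The comparison is by chromosome only, so the 22 can include copies elsewhere on that chromosome. The median difference was 0.02 for the 54 and 0.01 for the 22. Such probes may bind the parent mRNA, a copy, or both, which was not tested.

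Probes of Rpsa, Rpl5 and Rps2 are shown as they stand on the array, with their mm9 placement. For all but the second Rps2 probe that placement is on another chromosome than the gene's own. The second Rps2 probe lies on chromosome 17 from 42864841 in mm9, while the Rps2 start site window begins at 24720023 in GRCm38.p6. On the same chromosome, the brightest Rps10 probe lies from 27767387 in mm9 and the Rps10 window begins at 27635225. For Rpl7l1 these positions are 46912582 and 46782637. The gap for the second Rps2 probe is far larger, so its annotated placement is away from the gene. Which transcript it binds was not tested. Each probe is 60 bases long with at least 1 reading frame free of stop codons, and none is capitalised.
Rpsa (chr4:59175191-59175250; RefSeq chromosome 9): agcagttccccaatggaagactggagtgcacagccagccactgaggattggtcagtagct
Rpl5 (chr13:22768563-22768622; RefSeq chromosome 5): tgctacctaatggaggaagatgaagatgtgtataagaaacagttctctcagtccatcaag
Rps2, brightest (chr12:104105381-104105440; RefSeq chromosome 17): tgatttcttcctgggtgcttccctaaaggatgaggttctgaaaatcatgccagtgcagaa
Rps2, second (chr17:42864841-42864900; RefSeq chromosome 17): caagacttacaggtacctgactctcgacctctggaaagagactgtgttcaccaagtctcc

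The pair of Rps2 probes gave different readings. The brightest read 6.87, 7.25, 6.90 and 6.39 with doxycycline and 6.69, 6.77, 6.79 and 6.73 with saline, a difference of 0.11 with overlapping groups. The other read 6.86, 7.47, 7.10 and 7.28 against 5.67, 5.63, 5.71 and 7.60, a difference of 1.03 that did not pass the test (adjusted p = 0.14). There, saline arrays 1 to 3 lay more than 1 below every doxycycline array while saline array 4 was the highest of the 8.

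Ribosomal proteins outside the naming pattern did not pass the test either. Fau, which encodes a ribosomal protein fused to a ubiquitin-like domain, differed by -0.24 (SE 0.26), and Gnb2l1 (Rack1), the scaffold on the 40S head, by -0.03 (SE 0.17). In the list of 25 other TOP genes, 1 was higher and 0 were lower (limma, adjusted p under 0.05), with a median of -0.03. The 1 higher is 4% of the list, against 5.95% of all genes. The elongation factors Eef1a1 and Eef2 differed by 0.11 (SE 0.16) and -0.01 (SE 0.15). The 1 that rose was Hnrnpa1, an RNA-binding protein, by 0.58 (adjusted p = 0.0436), and its call was lost in 11 of the 23 other settings.

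Among the genes that assemble ribosomes, many were higher with doxycycline. Of 55 tested ribosome biogenesis genes, 22 were higher and 0 lower (40%, against 5.95% of all genes higher), with a median of 0.64 and 51 of 55 above 0. Wdr12, a subunit of the PeBoW complex for 60S maturation, read 2.32, 2.35, 2.32 and 2.30 with doxycycline and 0.94, 1.27, 0.94 and 1.44 with saline, with no overlap (difference 1.18, SE 0.16, adjusted p = 0.0025). With the mean of its probes, Wdr12 did not pass (0.67, adjusted p = 0.0625). Ncl, the nucleolar protein nucleolin, read 5.20, 5.56, 5.75 and 5.92 against 4.58, 4.59, 4.56 and 4.93, also without overlap (difference 0.94, SE 0.19, adjusted p = 0.0146), a call lost without saline array 3 (adjusted p = 0.0505). Eif6, which keeps the 60S subunit from joining too early, was higher by 0.68 (SE 0.14, adjusted p = 0.0152), a call lost in 3 of 23 other settings.

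The count of 22 varied with the array left out. It was 21 without doxycycline array 1 and 8, 4 and 5 without doxycycline arrays 2, 3 and 4. It was 3, 10, 1 and 35 without saline arrays 1, 2, 3 and 4. The list's median moved less, between 0.56 and 0.75 over these 8 fits. Whether the difference of this list differs from that of the ribosomal proteins was not tested, and the list was chosen with results of these data known.

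Proteins that carry, import or regulate ribosomal proteins had a median of 0.05. Of the 20 tested, 0 were lower and 2 were higher (10%, against 5.95% of all genes). These were Ipo4, an importin, by 0.73 (SE 0.18, adjusted p = 0.0281), and Heatr3, which accompanies the 5S proteins RPL5 and RPL11, by 0.64 (SE 0.16, adjusted p = 0.0296), and each call was lost in 8 of 23 other settings. Leaving out 1 array at a time gave 0 to 4 higher in this list. Larp1, the TOP-binding protein, differed by -0.04 (SE 0.21). Of 35 initiation factors, 3 were higher (8.57%, against 5.95% of all genes) and 0 lower, with a median of 0.23, and 0 to 7 were higher when 1 array was left out. Eif2s2, the beta subunit of eIF2, read 6.43, 6.50, 6.06 and 6.42 against 5.65, 5.36, 5.37 and 5.96, with no overlap (adjusted p = 0.0287), a call lost in 9 of 23 other settings.

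Of 29 regulators of mTOR signalling, 2 were higher and 2 lower (6.9% each, against 5.95% and 8.14% of all genes). The median of the list was -0.04. Eif4ebp1, the 4E-BP1 inhibitor of cap-dependent initiation that mTORC1 phosphorylates, read 5.03, 4.82, 4.59 and 4.49 with doxycycline and 3.71, 3.35, 3.79 and 3.58 with saline. The groups did not overlap (difference 1.13, SE 0.17, adjusted p = 0.00475), and the call held in all 23 other settings. Lamtor2, a subunit of the Ragulator anchor for mTORC1 on lysosomes, read 3.85, 3.42, 3.32 and 3.49 against 4.43, 4.25, 4.51 and 4.86 and fell by 1.00 (adjusted p = 0.0106), also in all 23 other settings. Ddit4 (REDD1), a stress-induced inhibitor of mTORC1, was higher by 1.36 (SE 0.33, adjusted p = 0.0279), and its call was lost in 8 of the other settings. Mtor itself and Rps6kb1, the S6 kinase, differed by 0.15 (SE 0.24) and -0.05 (SE 0.16).

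The ribosome of the mitochondria and the respiratory chain it serves are a second comparison. Of 75 tested mitochondrial ribosomal proteins, 0 were higher and 4 lower (5.33%, against 8.14% of all genes), with a median of -0.08 (0 to 5 lower when 1 array was left out). Of 74 nuclear genes of oxidative phosphorylation, 0 were higher and 9 lower (12.2%, against 8.14%), with a median of -0.42 and all 74 below 0. The count of 9 ranged from 1 to 17 when 1 array was left out and was 0 without scaling, where the median was -0.19 and that of all genes 0.24. Of 31 proteasome genes, 1 was higher (3.23%, against 5.95% of all genes) and 0 lower.

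**Figure D5:**
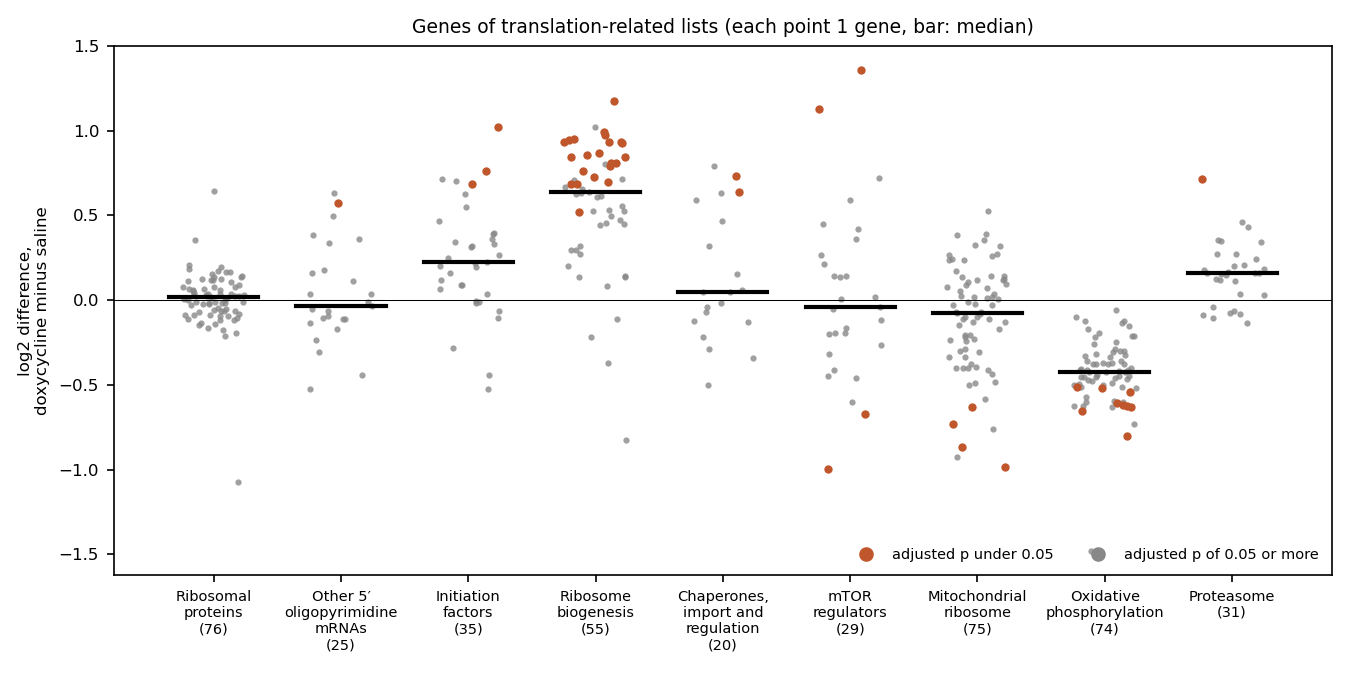
Log2 difference (vertical axis) of the genes of each list (horizontal axis, number tested in brackets), 1 point per gene, with the median as a bar and genes past adjusted p 0.05 in colour. The 76 canonical ribosomal proteins lie around 0.02 with 0 in colour, the 55 ribosome biogenesis genes around 0.64 with 22 in colour, and the 74 oxidative phosphorylation genes around -0.42 with 9 in colour.

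Markers of several epithelial cell types were lower with doxycycline. Over all genes tested, 5.95% were higher and 8.14% lower. Of 10 goblet cell markers 9 were lower (90%). The mean level of that list was 4.61 to 5.31 on the doxycycline arrays and 6.42 to 6.70 on the saline arrays. Of 9 stem cell markers 6 were lower (66.7%), and of 8 enteroendocrine markers 5 were lower (62.5%). Fewer Paneth cell markers were lower, 1 of 6 (16.7%). Outside the epithelium, 1 of 8 smooth muscle markers was lower (12.5%) and 1 of 6 fibroblast markers was higher (16.7%). The general epithelial list, which checks the labelled tissue, was well measured on all arrays. Of its 12 genes 0 were higher and 2 lower (16.7%), with mean levels of 6.24 to 6.63 and 6.62 to 6.84. Of 14 proliferation genes 1 was higher (7.14%, near the share over all genes), and of 14 enterocyte markers 0 passed the test. Of 7 macrophage markers 2 were higher (28.6%) and 1 lower (14.3%). Of 8 neutrophil markers listed, 7 were on the array and only 4 were bright enough to be tested. Higher values were called for 2 of these 4 (50%), though 0 of the 4 separated the groups without overlap. Higher values were also called for 2 of 6 endothelial markers (33.3%). Of 8 B cell markers 0 passed the test, with all 8 differences above 0, and of 8 T cell markers 0 passed. The part of cell composition in the values above was not tested.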

How the data were processed

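Per the labels, 200 ng of total RNA per sample was labelled with Cy3 and hybridised to 1-colour Agilent arrays. Agilent Feature Extraction 10.7.3.1, named in the submitters' processing notes, wrote the deposited files of linear spot intensity. Its processed intensity had the background subtracted, per the file headers. The deposited value table holds log2 values that equal these intensities less a constant per array (column medians -3.97 to -3.70), and served as an alternative.

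Control and outlier spots (169 to 259 per array) were left out, spots of a probe averaged, and log2 processed intensity reduced by each array's 75th percentile. A probe was kept if 4 or more of the 8 arrays had it well above background, and the brightest on average stood for its gene. The group comparison used lmFit and eBayes of limma 3.58.1 (R 4.3.3), two-sided, with Benjamini-Hochberg adjustment over the genes tested, and the same steps were tested on simulated data. Probe-level p-values come from that fit run over every kept probe. Errors beside differences are SE. The number of arrays limits the precision.

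The members, the gene lists and the tests were chosen with earlier results of these data known. The genes named were the 4 brightest and 4 dimmest tested members, Rplp0, Rplp1, Rplp2, Rpsa, Rpl5, Rpl11, Rps6, the X-linked members, all tested paralogs, Rps19bp1, Tnk1 and Hprt. Of each list up to 3 tested genes with the smallest p qualified, and other genes were chosen after their values were seen. Probe positions follow the mm9 annotation in the array files, and promoter windows come from RefSeq (GRCm38.p6). Alternatives covered scaling, background, the filter, the choice of probe, array weights, a replicate block and leaving out arrays. A search of transcripts for the probes was not run, since no transcript sequences of the build were used here. Single results of a few genes are not reported here, though the counts include them.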

Additional observations from a re-analysis of the deposited data

Results flagged for a closer look

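In each group of 4 arrays, a member's highest or lowest value was compared with the nearest other value. The gap exceeded Dixon's 95% critical value in 13 of 165 groups (7.88%), where chance gives about 1 in 20. In 10 of the 13, the value that stood apart was that of saline array 4, above the other 3 saline arrays. Among them were Rpl14 at 8.33, Rpl27 at 8.09, Rpl38 at 8.26, Rpl41 at 9.30 and Rpl7 at 7.85, all of the 60S subunit. The stalk proteins Rplp0 and Rplp2 stood at 8.77 and 8.78 on the same array. The 40S proteins Rps12 and Rps14 stood at 8.55 and 8.94 there. The members share the array, so these 10 are not independent of each other.

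On doxycycline arrays, Rpl28 stood apart at 3.44 on array 1, far below the other 3 doxycycline arrays. The paralog Rpl22l1 stood low at 5.65 on doxycycline array 3. Rps15a, a 40S protein, stood apart at 6.91 on doxycycline array 4.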

How the results depend on the processing

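All but 2 of the 23 refits gave 0 ribosomal protein genes higher and 0 lower. With the mean of kept probes, 1 was lower (Rpl22, -0.55, adjusted p = 0.0324). With the brightest probe on the gene's own chromosome, an alternative chosen after seeing the data that covers 45 members, 1 was lower (Rpl27a, -0.72, adjusted p = 0.0403). Their median difference ranged from -0.02 to 0.25, and from -0.02 to 0.09 when 1 array was left out. Without scaling it was 0.25 beside 0.24 for all genes. Tnk1 turned to 1.16 with the mean of kept probes.

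Over all genes, leaving out 1 array gave 639 to 1462 higher and 735 to 1987 lower. The count lower was 480 without scaling, 11900 without the filter on dim probes and 1054 without saline arrays 2 and 4. Array weights gave 2899 higher and 3550 lower. The replicate block gave 770 higher and 930 lower, with 0 members either way. Arrays of the same number had correlations of -0.04 to 0.11, and arrays of different numbers -0.25 to 0.22. Only doxycycline array 3 correlated best with the array of its own number. The main fit took the numbers as names only, and whether they mark pairs cannot be told from these correlations. Of 981 values of named genes, 860 kept their side of the threshold, 49 of them with the other sign. A further 106 lost the call, 14 gained it with the same sign, and 1 changed sign between fits of which at least 1 made a call. Ribosome biogenesis genes called higher ranged from 1 to 44. The number of arrays limits what could be detected.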

Other observations

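The array also carries names marked as ribosomal protein pseudogenes, which the naming rule left out. Of these, 6 were bright enough to be tested, and with limma 0 passed the test at adjusted p 0.05 or at an unadjusted p under 0.05. Rpl31-ps12, a copy named for the 60S protein RPL31, read 7.09, 7.18, 6.97 and 7.11 with doxycycline and 7.05, 7.12, 7.05 and 7.24 with saline, a difference of -0.03 with overlapping groups. Rpl7a-ps2 read 5.74, 4.20, 4.29 and 1.73 with doxycycline against 5.39, 5.18, 5.31 and 5.66 with saline. Its 4 saline values lay within 0.48 of each other while the doxycycline values spread over 4.01, and its difference was -1.39 (95% interval -2.98 to 0.19, adjusted p = 0.207).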
